A study of Mus musculus with 12 samples.

Results

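The tumour necrosis factor (TNF) superfamily and the family of its receptors were read here in sorted mouse thymocytes of 3 genotypes. The members were all genes whose symbol on the array platform begins with Tnfsf or Tnfrsf, together with Tnf, Lta, Ltb, Ltbr, Fas, Fasl, Cd27, Cd40, Cd40lg, Cd70 and Ngfr. The platform held 42 such genes with 81 probes. Of these, 27 genes with 47 probes were detected above background on at least 3 of the 12 arrays, among 10526 detected genes in all. A probe counts as detected where its deposited detection p-value, the share of negative-control beads that reach its brightness, was under 0.05.

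TNF ligands are mostly trimeric proteins of the cell surface that can be shed, and each binds 1 or more receptors of the TNF receptor family. Receptors with a cytoplasmic death domain can recruit caspases and start apoptosis, most other receptors bind TRAF adaptors that switch on the transcription factor NF-kB, and decoy receptors bind a ligand without passing on a signal. In the thymus, RANK ligand, CD40 ligand and the lymphotoxins made by lymphoid cells drive the growth of medullary epithelium, and CD27 is carried by T-cell precursors.

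The cells were double-negative thymocytes, which are immature precursors sorted for the absence of CD4 and CD8, from C57BL/6 mice aged 2 months. Mice with a CD2-Lmo2 transgene that also lacked Lyl1 gave 3 arrays (Lmo2 Lyl1-knockout), mice with the transgene and intact Lyl1 gave 3 (Lmo2), and wild-type mice gave 6. Both the Lmo2 Lyl1-knockout and the Lmo2 group are thus labelled as carrying the transgene, whose CD2 promoter is active in lymphoid cells, and no group lacked Lyl1 alone. LMO2 is an adaptor of blood-cell transcription factor complexes, LYL1 is a helix-loop-helix factor that can join them, and the series title asks whether leukaemia driven by Lmo2 requires Lyl1. The labels do not say that each array is a separate mouse, so the p-values cover the spread between the samples given, part of which may be technical, and the small number of arrays limits the precision.

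Each array detected 37.9% to 43.0% of probes. Lyl1 read 4.80, 5.03 and 4.90 on the log2 scale on the Lmo2 Lyl1-knockout arrays, with detection p-values of 0.249, 0.0769 and 0.141, against 10.01, 10.19 and 11.64 on those of Lmo2 mice and 6.66 to 7.25 on those of wild-type mice. Lmo2 itself was read by 1 probe, at 7.65, 8.90 and 7.78 on Lmo2 Lyl1-knockout and 7.35, 5.75 and 6.62 on Lmo2 arrays. On wild-type arrays it read 8.36, 8.41 and 8.62 in replicates 1 to 3 and 7.16, 6.94 and 6.77 in replicates 4 to 6. Against the pooled wild-type arrays it was thus not called as raised on the arrays labelled as transgenic. Limma's moderated test gave -1.14 ± 0.50 for Lmo2 (adjusted p = 0.203) and 0.40 ± 0.50 for Lmo2 Lyl1-knockout (adjusted p = 0.75). Every Lmo2 Lyl1-knockout array lay above wild-type replicates 4 to 6, while the Lmo2 arrays overlapped them. Nothing read here says whether this probe matches the transcript of the transgene. The groups are therefore named as labelled, and the difference between Lmo2 and wild-type rests on the label. The wild-type arrays fall into 2 sets. The non-normalized columns that match replicates 4 to 6 carry the extra word NHD13 in their names, which no label explains, and their counts of detection are known for the set but not per replicate. Thy1, a surface protein of thymocytes, read 13.62 to 14.44 over all arrays. Neither of 2 Cd8a probes was detected on any array and Cd4 was detected on 6 of 12, while Cd8b1 was detected on all of them, at 12.52 to 12.57 in Lmo2 Lyl1-knockout, 9.80 to 11.07 in Lmo2 and 12.42 to 13.19 in wild-type arrays.

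By role, 10 of 17 ligands, 6 of 6 death-domain receptors, 1 of 3 decoy receptors and 10 of 16 other receptors were detected. The ligands below that limit were Cd40lg, Cd70, Tnfsf4, Tnfsf9, Tnfsf12, Tnfsf15 and Tnfsf18. The receptors below it were Ltbr, Tnfrsf8, Tnfrsf11a, Tnfrsf14, Tnfrsf17 and Tnfrsf19, and the decoys were Tnfrsf11b (osteoprotegerin, which binds RANK ligand) and Tnfrsf23. Just outside the limit, Cd40lg and Tnfrsf8 were detected on 2 arrays each, and Ltbr, Tnfrsf11a and Tnfsf9 on 1 each. Just inside it, Tnfsf8 was detected on 4 arrays and Tnfrsf12a and Ngfr on 5 each. Thus RANK ligand was detected while its signalling receptor Tnfrsf11a and its decoy were not, and LIGHT (Tnfsf14) was detected while its receptors Tnfrsf14 and Ltbr were not. A probe not detected can be dim for reasons of its sequence, so this says nothing of the proteins.

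Lmo2 against wild-type arrays, which ask what differs with the transgene, gave 1 member that rose and 5 that fell. The apoptosis ligand Tnfsf10 (TRAIL) was higher in Lmo2 arrays, and Fasl, Tnfsf11 (RANK ligand), Tnfsf14 (LIGHT), Tnfrsf25 (DR3) and Tnfrsf9 (4-1BB) were lower. Over all genes 10.6% were called in this comparison (limma's moderated test, adjusted p under 0.05 over all probes kept), 5.59% higher and 4.97% lower. The median log2 difference of the 27 detected members was -0.287, beside -0.016 for all genes, with 16 members below 0 and 11 above. Scaling the arrays to a common median made the split 2 higher and 5 lower, the added gene being Cd27. The wild-type set mattered. In a fit with 2 wild-type sets, 8 members were called in Lmo2 arrays against replicates 4 to 6 (beside 21.8% of all genes) and 5 against replicates 1 to 3 (beside 8.5%). Fasl, Tnfrsf25, Tnfrsf9 and Tnfsf10 were called against both sets. Cd40 was called against replicates 1 to 3 alone, and Tnfsf11, Tnfsf14, Tnfsf8 and Cd27 against replicates 4 to 6 alone.

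Lmo2 Lyl1-knockout against Lmo2 arrays, which ask what differs with loss of Lyl1 where the transgene is present, gave 3 members that rose (Tnfsf14, Tnfrsf25 and Tnfrsf9) and 1 that fell (Tnfsf10). Of all genes 8.77% were called here, 4% higher and 4.77% lower. The members' median was 0.296, beside 0.006 for all genes. Both comparisons use the same 3 Lmo2 arrays, so their opposite signs are not independent of each other.

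Lmo2 Lyl1-knockout against wild-type arrays gave no member past the threshold with limma, beside 0.893% of all genes (0.542% higher and 0.352% lower). At an unadjusted p under 0.05, 3 of 27 members stood (11.1%, beside 11.2% of all genes), and the lowest adjusted p was 0.132, for Tnfsf13b. The members' median was 0.089, beside -0.01 for all genes. A fit with weights for array quality called 2 members, Fasl as lower and Tnfsf13b as higher, and the fit without Lmo2 Lyl1-knockout replicate 1 called Tnfsf13b. Against wild-type replicates 4 to 6, in the fit with 2 wild-type sets, 1 member was called, Tnfsf8, detected on 1 of 3 Lmo2 Lyl1-knockout arrays, as lower by 0.72 (adjusted p = 0.0417), beside 9.6% of all genes, and against replicates 1 to 3 none was, beside 0.779%.

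**Figure D1:**
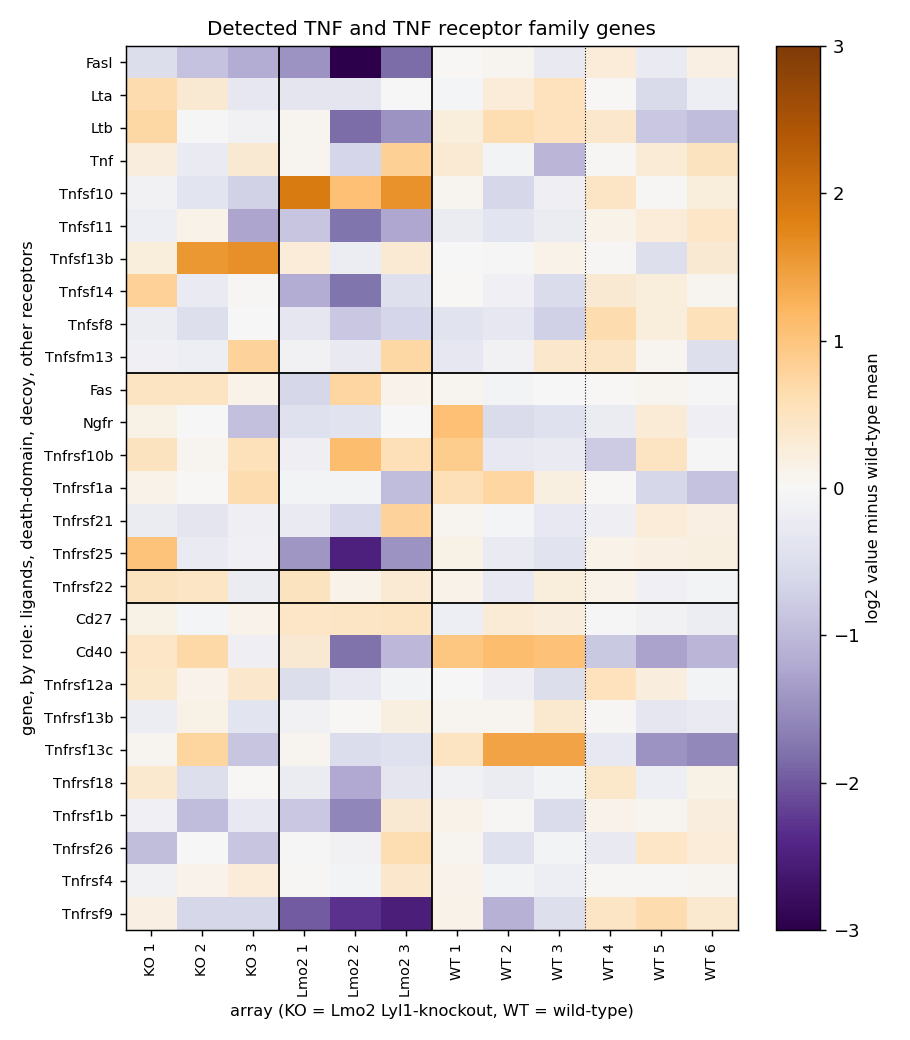
Log2 value of each detected member on each array minus that gene's wild-type mean, colour running from 3 below (purple) to 3 above (brown). Rows are genes by role and columns arrays, Lmo2 Lyl1-knockout (KO) first, then Lmo2, then wild-type (WT), where a dotted line parts replicates 1 to 3 from 4 to 6. Tnfsf10 stands out as brown on the Lmo2 arrays, and Fasl, Tnfrsf25 and Tnfrsf9 as purple there.

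**Figure D2:**
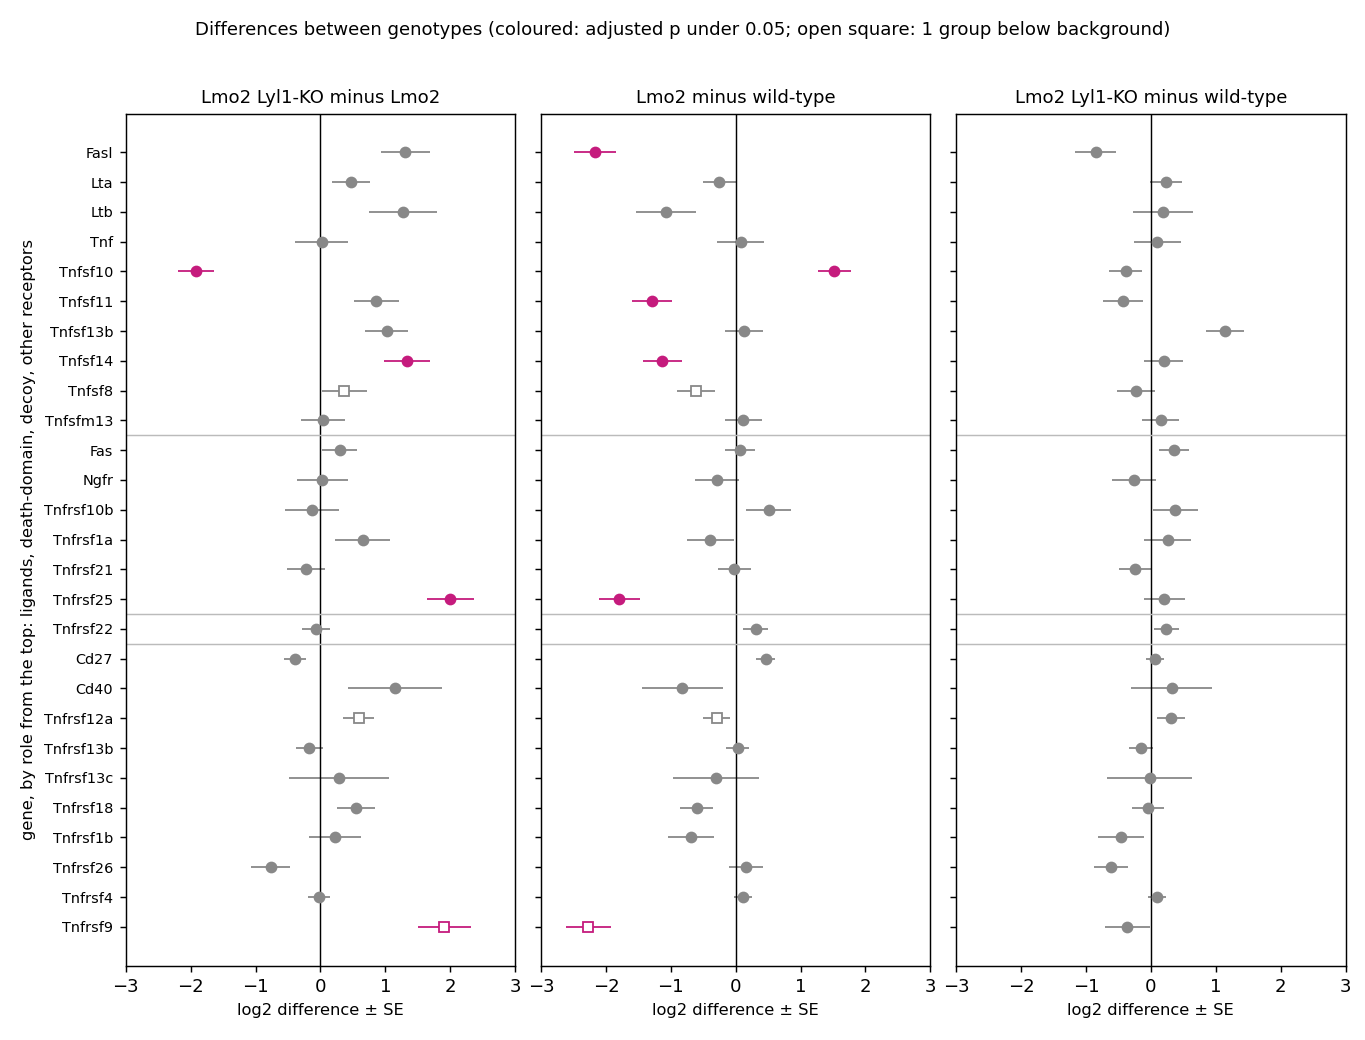
Log2 difference with its standard error for the 27 detected members in each of the 3 comparisons, genes by role. Coloured points passed an adjusted p of 0.05 and open squares mark differences where 1 group was below background on every array. In the left panel 4 points are coloured, in the middle panel 6, and in the right panel none.

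For the members that changed, 300 bases around the start of the gene were read from RefSeq (GRCm38.p6), 250 before the start and 50 after it. They were searched on both strands for CAGATG and CAGCTG, which are E-boxes of the kind that helix-loop-helix factors bind, for GATAA, the core letters read by GATA factors, for the AP-1 motif TGANTCA and for the NF-kB consensus motif. Over 32841 RefSeq promoters of this length, CAGATG was present in 17.2%, CAGCTG in 16.3%, GATAA in 25.4%, the AP-1 motif in 7.81% and the NF-kB motif in 8.46%. A match is a string of letters and not a shown binding site, and the absence of one concerns this window only. Capitals mark the matches in the sequences given with their genes.

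Among ligands, Tnfsf10 encodes TRAIL, which kills through death-domain receptors, of which the mouse has Tnfrsf10b. Tnfsf10 read 8.16, 7.88 and 7.58 on the Lmo2 Lyl1-knockout arrays, 10.16, 9.32 and 9.88 on the Lmo2 arrays, and 7.65 (lowest), 8.31 (median) and 8.71 (highest) on the wild-type arrays. Every Lmo2 array lay above every array of both other groups, which overlapped. Tnfsf10 rose 2.88-fold in Lmo2 against wild-type arrays (log2 1.52 ± 0.25, SE; adjusted p = 0.00176), and was 3.77-fold lower in Lmo2 Lyl1-knockout than in Lmo2 arrays (-1.92 ± 0.28; adjusted p = 0.00115). Its second detected probe gave 1.70 (adjusted p = 0.000945) and -1.89 (adjusted p = 0.0014). The difference of Lmo2 arrays was 1.76 from wild-type replicates 1 to 3 alone and 1.29 from replicates 4 to 6 alone. Lmo2 Lyl1-knockout and wild-type arrays differed by -0.39 ± 0.25 (adjusted p = 0.548). The region at the start of Tnfsf10, the only detected member that rose in Lmo2 arrays, is chr3:27316827-27317126 on the plus strand, and none of the motifs searched is in it.
Tnfsf10: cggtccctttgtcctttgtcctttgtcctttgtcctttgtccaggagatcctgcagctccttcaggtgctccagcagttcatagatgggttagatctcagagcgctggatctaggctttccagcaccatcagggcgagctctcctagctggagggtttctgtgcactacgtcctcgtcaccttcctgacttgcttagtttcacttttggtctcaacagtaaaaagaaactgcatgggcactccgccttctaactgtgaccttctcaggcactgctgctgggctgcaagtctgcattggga

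Fasl encodes the ligand of Fas on cytotoxic lymphocytes. It read 7.51, 7.10 and 6.85 on the Lmo2 Lyl1-knockout arrays, 6.57, 4.79 and 6.16 on the Lmo2 arrays, and 7.73, 8.04 and 8.28 (lowest, median and highest) on the wild-type arrays. The 3 groups did not overlap, with Lmo2 Lyl1-knockout arrays between the others. Fasl was detected on 2 of 3 Lmo2 arrays. Fasl was 4.49-fold lower in Lmo2 than in wild-type arrays (-2.17 ± 0.32; adjusted p = 0.000957). Lmo2 Lyl1-knockout arrays were higher than Lmo2 arrays by 1.31 ± 0.37, which missed the threshold (adjusted p = 0.0534), passed it in 7 of 17 alternatives, and was 0.79 without Lmo2 replicate 2. The difference between Lmo2 Lyl1-knockout and wild-type arrays was -0.85 ± 0.32 (adjusted p = 0.355). Fasl lies at the end of a run with Tnfsf4 and Tnfsf18 on chromosome 1 with no protein-coding gene between them, and neither of those was detected on 3 arrays. The region at its start, chr1:161788446-161788745 on the minus strand, holds CAGATG at bases 17 to 22 after the start.
Fasl: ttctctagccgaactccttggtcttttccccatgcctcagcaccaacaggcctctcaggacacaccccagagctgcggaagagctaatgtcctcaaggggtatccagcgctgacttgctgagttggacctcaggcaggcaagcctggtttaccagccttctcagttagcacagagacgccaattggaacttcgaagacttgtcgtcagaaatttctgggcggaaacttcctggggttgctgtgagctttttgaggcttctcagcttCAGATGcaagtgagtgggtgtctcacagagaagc

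Tnfsf11, or RANK ligand, read 6.73, 7.03 and 5.66 on the Lmo2 Lyl1-knockout arrays, 6.04, 5.13 and 5.68 on the Lmo2 arrays, and 6.52, 6.86 and 7.33 (lowest, median and highest) on the wild-type arrays. All Lmo2 arrays lay below all wild-type arrays, while Lmo2 Lyl1-knockout arrays overlapped both. Tnfsf11 fell by 1.29 ± 0.31 in Lmo2 against wild-type arrays (adjusted p = 0.02). The call was lost against wild-type replicates 1 to 3 alone (-1.01; adjusted p = 0.182), without Lmo2 replicate 2 (-1.04; adjusted p = 0.0864) and without Lmo2 replicate 3 (-1.32; adjusted p = 0.0524). Lmo2 Lyl1-knockout arrays differed from Lmo2 arrays by 0.86 ± 0.35 (adjusted p = 0.206), or 1.26 without Lmo2 Lyl1-knockout replicate 3 (adjusted p = 0.0425). Tnfsf11 was detected on 2 of 3 Lmo2 arrays. The region at the start of Tnfsf11 holds CAGATG at bases -102 to -97.

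Tnfsf14, or LIGHT, which co-stimulates T cells, read 8.30, 7.23 and 7.52 on the Lmo2 Lyl1-knockout arrays, 6.32, 5.71 and 7.03 on the Lmo2 arrays, and 6.94, 7.52 and 7.83 (lowest, median and highest) on the wild-type arrays. The highest Lmo2 array lay above the lowest wild-type array, and all Lmo2 Lyl1-knockout arrays lay above all Lmo2 arrays. Tnfsf14 fell by 1.13 ± 0.30 in Lmo2 against wild-type arrays (adjusted p = 0.0386) and rose by 1.33 ± 0.35 in Lmo2 Lyl1-knockout against Lmo2 arrays (adjusted p = 0.0408). These were the least stable of the calls. That against wild-type was lost in 11 of 22 alternatives, with adjusted p from 0.0125 to 0.273 over them, among them the fits without wild-type replicate 1, 2, 4, 5 or 6 (-1.13, -1.15, -1.06, -1.08 and -1.11) and without Lmo2 replicate 1 (-1.11) or 2 (-0.81). That against Lmo2 was lost in 8 of 17, among them the fits without Lmo2 replicate 1 (1.31) or 2 (1.00) and without Lmo2 Lyl1-knockout replicate 1 (1.02) or 3 (1.41). Against wild-type replicates 4 to 6 the difference of Lmo2 arrays was -1.35 (adjusted p = 0.019), and against replicates 1 to 3 it was -0.91 (adjusted p = 0.155). The second probe of Tnfsf14 gave -1.17 (adjusted p = 0.0759) and 1.03 (adjusted p = 0.207). Tnfsf14 stands beside Cd70 and Tnfsf9 on chromosome 17, neither of them detected on 3 arrays, and the region at its start holds the AP-1 motif at bases -160 to -154.

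The other 6 detected ligands passed the threshold in none of the 3 comparisons. Ltb, whose product anchors lymphotoxin to the cell surface, read 10.32, 9.57 and 9.50 on the Lmo2 Lyl1-knockout arrays, 9.65, 7.76 and 8.17 on the Lmo2 arrays, and ran 8.64 to 10.23 over the wild-type arrays. The groups overlapped, and its differences were 1.27 ± 0.53 for Lmo2 Lyl1-knockout against Lmo2 arrays (adjusted p = 0.22) and -1.07 ± 0.46 for Lmo2 against wild-type arrays (adjusted p = 0.195). Both were called without Lmo2 replicate 1. Its neighbours on chromosome 17, Tnf and Lta, stayed nearer to 0 in Lmo2 against wild-type arrays, at 0.08 ± 0.36 for the inflammatory cytokine Tnf (adjusted p = 0.924) and -0.25 ± 0.25 for the secreted lymphotoxin Lta (adjusted p = 0.617). Tnf read 5.23 to 7.10 and Lta 5.90 to 7.11 over all arrays.

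Tnfsf13b encodes BAFF, a survival factor of B cells made largely by myeloid cells. It read 5.54, 6.85 and 6.94 on the Lmo2 Lyl1-knockout arrays, 5.56, 5.10 and 5.61 on the Lmo2 arrays, and 4.83, 5.31 and 5.65 (lowest, median and highest) on the wild-type arrays. Replicates 2 and 3 of Lmo2 Lyl1-knockout stood above every other array, while replicate 1 lay within the range of the others. The differences did not pass, at 1.02 ± 0.33 against Lmo2 arrays (adjusted p = 0.101) and 1.14 ± 0.29 against wild-type arrays (adjusted p = 0.132). The second probe of Tnfsf13b gave 1.36 in both (adjusted p = 0.0568 and 0.121). The mean log2 level of 16 detected myeloid markers, of 18 listed, ran higher on the same 2 arrays, at 8.93, 10.17 and 10.32 on Lmo2 Lyl1-knockout replicates 1, 2 and 3, against 6.60 to 6.89 on Lmo2 and 6.72 to 8.23 on wild-type arrays. Of those markers 9 were higher in Lmo2 Lyl1-knockout than in Lmo2 arrays, beside 4% of all genes, and 7 were not called. Among the 7, C1qb (-1.27, adjusted p = 0.213), C1qc (-0.80, adjusted p = 0.453) and Cd14 (-0.39, adjusted p = 0.623) lay below 0. Itgam was detected on no array. The part of myeloid cells in the Tnfsf13b values was not tested.

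Tnfsf8 (CD30 ligand) was detected on 1 of 3 Lmo2 Lyl1-knockout, 0 of 3 Lmo2 and 3 of 6 wild-type arrays. Lmo2 and wild-type arrays did not differ past the threshold (adjusted p = 0.25), but Lmo2 arrays were at least 1.42-fold lower than in wild-type replicates 4 to 6 (adjusted p = 0.00345). Tnfsfm13, a read-through transcript of neighbouring ligand genes, read 4.88 to 6.14, with differences of 0.04 ± 0.34 for Lmo2 Lyl1-knockout against Lmo2 arrays (adjusted p = 0.973) and 0.12 ± 0.29 for Lmo2 against wild-type arrays (adjusted p = 0.857).

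Among the death-domain receptors, Tnfrsf25 (DR3), a T-cell receptor for the ligand Tnfsf15, was the only one past the threshold. It read 8.44, 7.18 and 7.31 on the Lmo2 Lyl1-knockout arrays, 6.02, 4.93 and 5.99 on the Lmo2 arrays, and 7.03, 7.57 and 7.62 (lowest, median and highest) on the wild-type arrays. The Lmo2 arrays lay below all others, and the Lmo2 Lyl1-knockout and wild-type arrays overlapped. Tnfrsf25 rose 4.00-fold in Lmo2 Lyl1-knockout against Lmo2 arrays (2.00 ± 0.36; adjusted p = 0.004) and was 3.45-fold lower in Lmo2 than in wild-type arrays (-1.79 ± 0.31; adjusted p = 0.00295). With wild-type replicates 1 to 3 alone the difference of Lmo2 from wild-type was -1.62 (adjusted p = 0.0558), and with the Lmo2 Lyl1-knockout and Lmo2 arrays fitted without the wild-type arrays that of Lmo2 Lyl1-knockout from Lmo2 stayed at 2.00 with an adjusted p of 0.0664. Tnfrsf25 was detected on 2 of 3 Lmo2 arrays. RefSeq lists 2 starts for Tnfrsf25. The later one, chr4:152116093-152116392 on the plus strand, holds the NF-kB motif at bases -28 to -19 and 37 to 46, and the earlier one holds none of the motifs searched.
Tnfrsf25: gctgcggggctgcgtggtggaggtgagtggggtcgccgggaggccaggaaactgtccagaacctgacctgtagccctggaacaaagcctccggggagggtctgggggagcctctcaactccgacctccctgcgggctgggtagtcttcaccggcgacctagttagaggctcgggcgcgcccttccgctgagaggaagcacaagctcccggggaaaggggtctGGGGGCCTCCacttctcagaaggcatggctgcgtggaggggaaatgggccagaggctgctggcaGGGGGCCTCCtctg

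The other 5 death-domain receptors passed the threshold in none of the 3 comparisons. Fas, the receptor of Fasl, read 7.13 to 8.50 over all arrays and differed by 0.30 ± 0.27 between Lmo2 Lyl1-knockout and Lmo2 arrays (adjusted p = 0.635) and by 0.07 ± 0.23 between Lmo2 and wild-type arrays (adjusted p = 0.897). Its spread was wider among the Lmo2 arrays (SD 0.68, n = 3) than among the wild-type arrays (SD 0.05, n = 6). The TRAIL receptor Tnfrsf10b read 7.19 to 9.09, with differences of -0.13 ± 0.41 (adjusted p = 0.914) and 0.51 ± 0.35 (adjusted p = 0.441) in the same comparisons. Neither Fas nor Tnfrsf10b was called in a comparison where its ligand was. Tnfrsf1a, the TNF receptor with a death domain, read 4.96 to 6.67, Tnfrsf21 (DR6) 7.97 to 9.35 and Ngfr, the p75 neurotrophin receptor, 4.53 to 6.52. On the probes read for these 3 genes, no difference between genotypes was larger than 0.65 in size. A second probe of Tnfrsf1a differed by 1.03 between Lmo2 Lyl1-knockout and Lmo2 arrays (adjusted p = 0.192).

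The decoy receptor Tnfrsf22, which binds TRAIL in the mouse, gave different answers by probe. Its brightest probe differed by 0.31 ± 0.19 between Lmo2 and wild-type arrays (adjusted p = 0.369), its second probe by -1.21 (adjusted p = 0.00829) and a further probe by 0.05 (adjusted p = 0.872). Which transcripts each probe reads was not analysed here. Tnfrsf22 is therefore reported as uncertain. Its neighbour Tnfrsf26, a related receptor, read 5.54 to 7.12 and differed by -0.77 ± 0.30 between Lmo2 Lyl1-knockout and Lmo2 arrays (adjusted p = 0.183).

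Tnfrsf9 encodes 4-1BB, a co-stimulatory receptor that activated T cells and natural killer cells carry. It read 7.20, 6.41 and 6.42 on the Lmo2 Lyl1-knockout arrays, 5.06, 4.72 and 4.52 on the Lmo2 arrays, and 5.93, 7.28 and 7.67 (lowest, median and highest) on the wild-type arrays. It was detected on all 3 Lmo2 Lyl1-knockout arrays, on none of the 3 Lmo2 arrays and on all 6 wild-type arrays, so its differences from Lmo2 arrays are bounds, set against the lowest value of any detected probe. The adjusted p beside each bound is that of the limma fit to the values as read, not a test of the bound. It was at least 2.63-fold higher in Lmo2 Lyl1-knockout than in Lmo2 arrays (adjusted p = 0.0125) and at least 3.37-fold lower in Lmo2 than in wild-type arrays (adjusted p = 0.00146). That second bound was 4.72-fold against wild-type replicates 4 to 6 (adjusted p = 0.000226) and 2.41-fold against replicates 1 to 3 (adjusted p = 0.00449). A second probe of Tnfrsf9 gave at least 1.49-fold (adjusted p = 0.0188) and at least 1.38-fold (adjusted p = 0.0135) the same ways. Without Lmo2 Lyl1-knockout replicate 1 Tnfrsf9 was at least 2.2-fold higher in Lmo2 Lyl1-knockout than in Lmo2 arrays and that call was lost (adjusted p = 0.0624, within 0.00491 to 0.0624 over its alternatives). Tnfrsf9 and Tnfrsf25 lie on chromosome 4 with 14 protein-coding genes between them. RefSeq lists 2 starts for Tnfrsf9, of which the earlier holds none of the motifs. The later, chr4:150927749-150928048 on the plus strand, is shown because it holds 4 of the 5 motifs searched. GATAA stands at bases -198 to -194, CAGCTG at -143 to -138 and -48 to -43, and the AP-1 motif at -15 to -9. The NF-kB motif matches at -43 to -34 and at -42 to -33, and these overlap each other and the second CAGCTG.
Tnfrsf9: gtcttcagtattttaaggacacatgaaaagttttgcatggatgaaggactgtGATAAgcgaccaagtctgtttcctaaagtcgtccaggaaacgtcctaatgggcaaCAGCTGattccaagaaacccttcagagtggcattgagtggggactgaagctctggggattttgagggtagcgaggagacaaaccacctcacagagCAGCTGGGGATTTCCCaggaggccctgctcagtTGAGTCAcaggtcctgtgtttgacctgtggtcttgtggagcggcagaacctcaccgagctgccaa

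**Figure D3:**
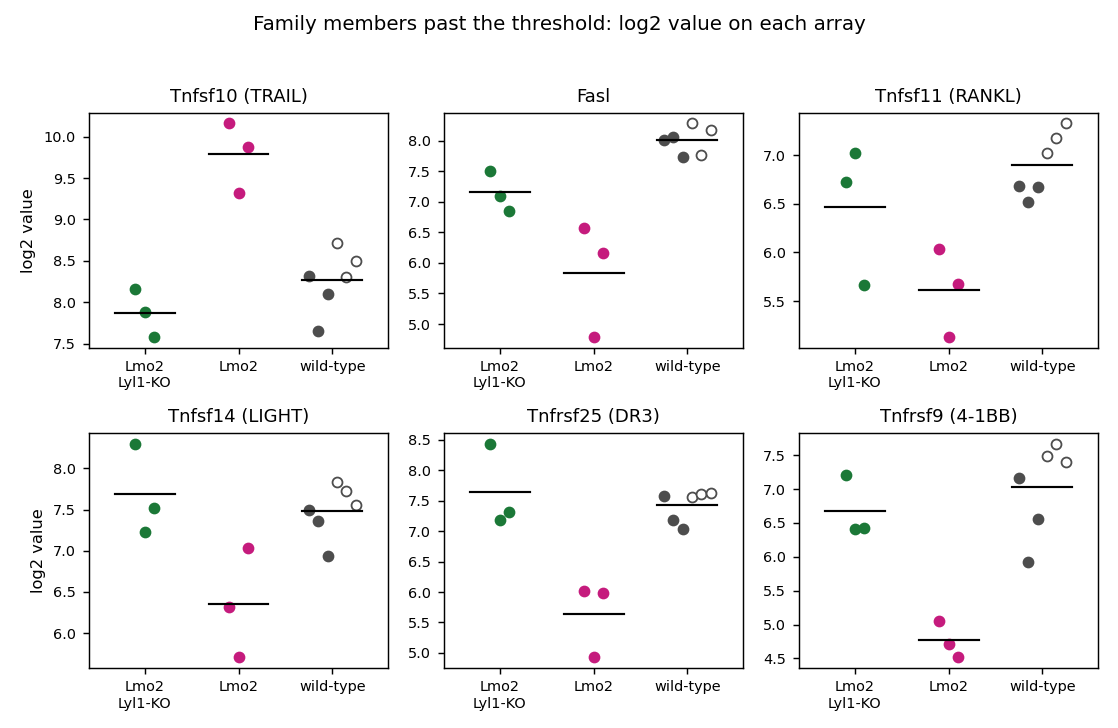
Log2 value on each array for the 6 members past the threshold in a comparison, with Lmo2 Lyl1-knockout, Lmo2 and wild-type arrays from left to right. Horizontal lines are group means and open circles wild-type replicates 4 to 6, and each panel has its own axis, which does not start at 0. The Lmo2 arrays of Tnfsf10 lie at 9.32 to 10.16, above all others, and those of Tnfrsf25 at 4.93 to 6.02, below all others.

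Without background correction the differences of these genes were smaller in size. Lmo2 against wild-type arrays then gave 1.13 for Tnfsf10, -1.0 for Fasl, -0.73 for Tnfrsf25 and -0.48 for Tnfsf11, all past the threshold, as was Tnfrsf9, and -0.51 for Tnfsf14, which missed it (adjusted p = 0.0513). Lmo2 Lyl1-knockout against Lmo2 arrays gave -1.38 for Tnfsf10, 0.87 for Tnfrsf25 and 0.63 for Tnfsf14, past the threshold, while Tnfrsf9 missed it (adjusted p = 0.0506).

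The other 9 detected receptors passed the threshold in none of the 3 comparisons. Cd27, a co-stimulatory receptor of T-cell precursors, read 13.23, 13.02 and 13.18 on the Lmo2 Lyl1-knockout arrays, 13.51, 13.54 and 13.56 on the Lmo2 arrays, and ran 12.87 to 13.36 over the wild-type arrays. On this probe the Lmo2 arrays lay above all others, by 0.46 ± 0.14 over wild-type arrays, which missed the threshold (adjusted p = 0.0722). The difference passed under several alternatives, among them no background correction, scaling to a common median, 1 probe per gene and the fit without wild-type replicate 2. It was 0.57 against wild-type replicates 4 to 6 (adjusted p = 0.0219) and 0.35 against replicates 1 to 3 (adjusted p = 0.227). The other 2 probes of Cd27 overlapped between Lmo2 and wild-type arrays and gave 0.40 (adjusted p = 0.373) and 0.56 (adjusted p = 0.187). The neighbouring genes Tnfrsf4 (OX40) and Tnfrsf18 (GITR) on chromosome 4 mark regulatory and activated T cells. Tnfrsf4 read 7.15 to 7.71 and differed by 0.11 ± 0.14 between Lmo2 and wild-type arrays (adjusted p = 0.714), while Tnfrsf18 read 7.86 to 9.49 and differed by -0.60 ± 0.25 (adjusted p = 0.18). Tnfrsf1b, the TNF receptor without a death domain, read 6.12 to 8.04 and differed by -0.69 ± 0.35 (adjusted p = 0.279). Dimmer probes of Tnfrsf1b, detected on 4 and 3 arrays, gave -0.07 (adjusted p = 0.908) and 0.22 (adjusted p = 0.61). Tnfrsf13b (TACI), a receptor of BAFF, read 9.56 to 10.33 and differed by 0.03 ± 0.18 (adjusted p = 0.948). Tnfrsf12a, the receptor of TWEAK, was detected on 3 of 3 Lmo2 Lyl1-knockout, 0 of 3 Lmo2 and 2 of 6 wild-type arrays. It was at least 1.21-fold higher in Lmo2 Lyl1-knockout than in Lmo2 arrays, which did not pass (adjusted p = 0.193).

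Cd40 and Tnfrsf13c, the BAFF receptor, are carried by B cells, and dendritic cells carry Cd40 as well. Both split the wild-type arrays. Cd40 read 7.09, 7.35 and 6.50 on the Lmo2 Lyl1-knockout arrays, 6.99, 4.87 and 5.64 on the Lmo2 arrays, 5.86, 5.38 and 5.62 on wild-type replicates 4 to 6 and 7.62, 7.76 and 7.71 on wild-type replicates 1 to 3. Tnfrsf13c read 6.64, 7.33 and 5.73, then 6.63, 6.05 and 6.15, then 6.28, 5.14 and 5.01 and 7.06, 8.0 and 7.99 in the same order. On these probes the wild-type sets did not overlap, while the genotypes did. A second Cd40 probe, lower in replicates 4 to 6 (adjusted p = 0.0124), was detected on all of replicates 1 to 3 and none of 4 to 6. A further Cd40 probe went another way, at 5.42, 5.62 and 5.44 on replicates 4 to 6 and 5.29, 5.11 and 5.43 on replicates 1 to 3, and all Lmo2 arrays lay below all wild-type arrays on it (at least 1.08-fold, adjusted p = 0.0528). Cd40 is therefore reported as uncertain. Between wild-type replicates 4 to 6 and 1 to 3, 3 members were called, 1 higher and 2 lower, beside 5.86% of all genes, 2.81% higher and 3.05% lower. Cd40 differed by -2.08 ± 0.43 (adjusted p = 0.0247) and Tnfrsf13c by -2.21 ± 0.44 (adjusted p = 0.0234), and Tnfsf8, detected on none of replicates 1 to 3, was at least 1.51-fold higher in replicates 4 to 6 (adjusted p = 0.0232). All 3 calls were lost without wild-type replicate 2, 3, 5 or 6 (differences of -2.08 to -1.96 for Cd40, -2.06 to -1.97 for Tnfrsf13c, and at least 1.47-fold to 1.64-fold for Tnfsf8), and those of Cd40 and Tnfsf8 also without replicate 4 (-2.20, and at least 1.43-fold). Between genotypes, Cd40 differed by 1.15 ± 0.73 for Lmo2 Lyl1-knockout against Lmo2 arrays (adjusted p = 0.452) and -0.82 ± 0.63 for Lmo2 against wild-type arrays (adjusted p = 0.488), and Tnfrsf13c by 0.29 ± 0.77 (adjusted p = 0.9) and -0.30 ± 0.66 (adjusted p = 0.832). These pooled values hide opposite signs by wild-type set. For Lmo2 arrays, Cd40 differed by 0.22 from replicates 4 to 6 (adjusted p = 0.753) and by -1.86 from replicates 1 to 3 (adjusted p = 0.0228), and Tnfrsf13c by 0.80 (adjusted p = 0.222) and -1.41 (adjusted p = 0.0886). For Lmo2 Lyl1-knockout arrays, Cd40 differed by 1.36 (adjusted p = 0.0646) and -0.72 (adjusted p = 0.852), and Tnfrsf13c by 1.09 (adjusted p = 0.125) and -1.12 (adjusted p = 0.534).

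Mean levels of B-lineage and dendritic markers also parted the wild-type arrays, though few single markers passed. The mean log2 level of 7 detected B-lineage markers, of 11 listed, was 6.26 to 6.44 on wild-type replicates 4 to 6 and 7.07 to 7.43 on replicates 1 to 3. That of 9 detected dendritic markers, of 13 listed, was 8.26 to 8.57 and 9.33 to 9.51. None of the 7 B-lineage markers was called between the sets (lowest adjusted p = 0.059, for Cd22), and 2 of the 9 dendritic markers were, H2-Aa (-2.67; adjusted p = 0.0173) and H2-Eb1 (-1.93; adjusted p = 0.035), while Bst2 differed by 0.64 (adjusted p = 0.406). The B-lineage markers Pax5 and Vpreb3 were detected on at most 2 arrays and the dendritic markers Itgax and Xcr1 on none. The part of these cells in the Cd40 and Tnfrsf13c values was not tested. In a bulk sample, fewer cells of a type and less RNA per cell cannot be told apart.

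**Figure D4:**
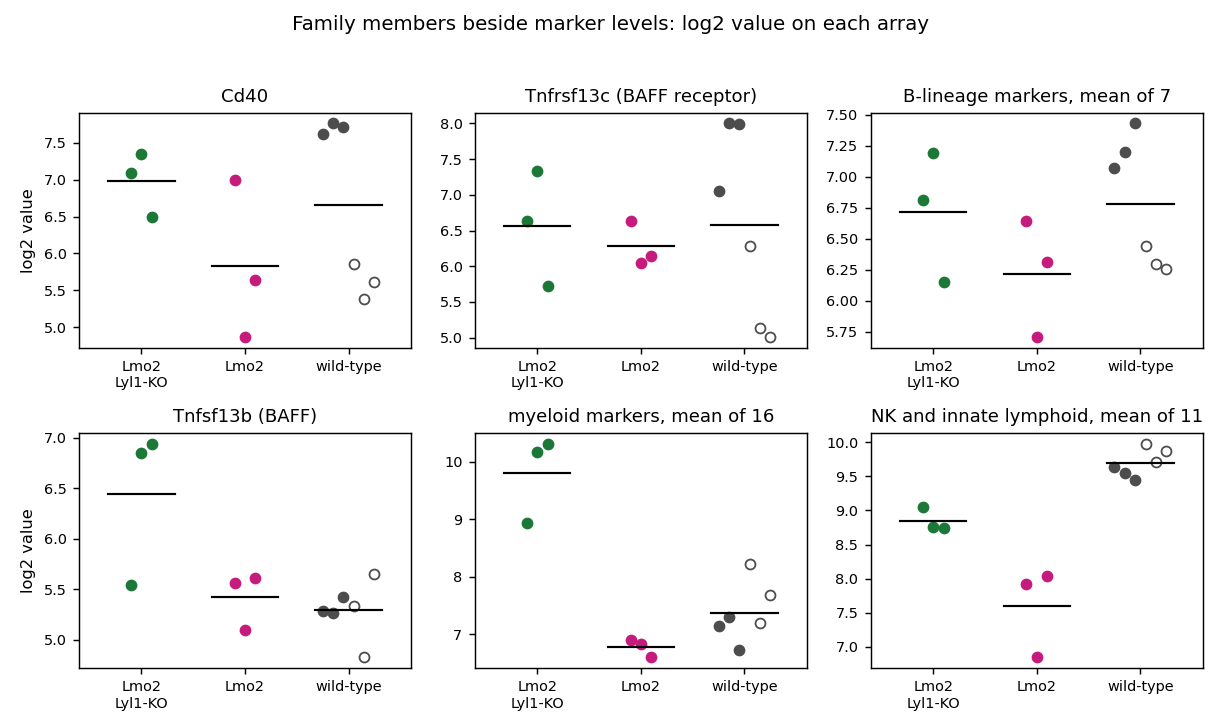
Log2 value on each array of Cd40, Tnfrsf13c and Tnfsf13b, beside the mean log2 level of 7 B-lineage, 16 myeloid and 11 natural killer and innate lymphoid markers. Groups run from Lmo2 Lyl1-knockout through Lmo2 to wild-type, lines are group means, open circles are wild-type replicates 4 to 6, and each panel has its own axis, which does not start at 0. The B-lineage panel parts the wild-type arrays at 6.26 to 6.44 and 7.07 to 7.43, and the natural killer panel places Lmo2 arrays lowest, at 6.85 to 8.04.

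Markers of natural killer and innate lymphoid cells, which carry several of the 5 members that fell in Lmo2 arrays, were lower there as well. The mean log2 level of 11 detected markers, of 16 listed, was 8.74 to 9.05 on Lmo2 Lyl1-knockout, 6.85 to 8.04 on Lmo2 and 9.44 to 9.98 on wild-type arrays. Of these 11, 9 were lower in Lmo2 than in wild-type arrays (median -2.37), such as the receptor Klrd1 (-2.42 ± 0.26, adjusted p = 8.25e-05), and 6 were higher in Lmo2 Lyl1-knockout than in Lmo2 arrays (median 1.39). Over all genes 4.97% were lower in the first comparison and 4% higher in the second. In Lmo2 Lyl1-knockout against wild-type arrays 2 of the 11 were lower (median -0.78), beside 0.352% of all genes. There Tnfrsf25 differed by 0.21 (adjusted p = 0.783) and Tnfsf14 by 0.20 (adjusted p = 0.796). The other members that fell in Lmo2 arrays lay below 0, Fasl at -0.85 (adjusted p = 0.355), Tnfsf11 at -0.43 (adjusted p = 0.576) and Tnfrsf9 at -0.36 (adjusted p = 0.682). Lmo2 replicate 2, the lowest Lmo2 array for Fasl, Tnfsf11, Tnfsf14 and Tnfrsf25, also had the lowest level of these markers (6.85, against 7.92 and 8.04 on Lmo2 replicates 1 and 3). This was not particular to them. The same array was lowest of the Lmo2 arrays for double-negative (10.65), mature T (7.07), gamma-delta T (7.15), B-lineage (5.71), dendritic (7.43) and stroma markers (7.35). For double-positive and myeloid markers (8.73 and 6.82) replicate 3 was lowest (8.72 and 6.60). On Lmo2 replicate 2 Fasl (4.79), Tnfsf11 (5.13) and Tnfrsf25 (4.93) lay below the lowest value of any detected probe (5.2). Tnfrsf9 was detected on no Lmo2 array, so its order among them is not read. Ncr1, a defining receptor of natural killer cells, was detected on no array, and Klra8, Gzmb and Eomes on at most 1. Markers of regulatory and mature T cells, 7 detected of 10 listed, had mean levels of 8.24 to 8.40 on Lmo2 Lyl1-knockout, 7.07 to 7.73 on Lmo2 and 8.30 to 8.46 on wild-type arrays. In Lmo2 against wild-type arrays 2 of them were lower, Ctla4 and Il2rb, and Il2rb is also among the natural killer markers. The other 5 were not called. They were Icos (-1.76, adjusted p = 0.0631), Ccr7 (-0.34, adjusted p = 0.437), Foxp3 (-0.23, adjusted p = 0.48), Klf2 (-0.21, adjusted p = 0.761) and Ikzf2 (1.05, adjusted p = 0.276). Dendritic markers were lower in this comparison too, 3 of 9 being called (H2-DMa, Irf8 and Siglech) and none higher (median -0.92). Of 7 B-lineage markers 1 was lower, Cd72 (-2.16, adjusted p = 0.00161), and none higher (median -0.65). The 14 double-negative thymocyte markers, all detected, had mean levels of 11.04 to 11.12, 10.65 to 11.03 and 11.06 to 11.28, but 4 of them moved. In Lmo2 against wild-type arrays Ptcra, the pre-T-cell receptor chain (-2.78; adjusted p = 0.000355), Rag1 (-1.57; adjusted p = 5.68e-05) and Cd44 (-1.24; adjusted p = 0.000587) fell and Kit rose (1.66; adjusted p = 0.0176). In Lmo2 Lyl1-knockout against Lmo2 arrays Ptcra (2.85), Rag1 (1.35) and Cd44 (1.26) rose and Kit fell (-2.84), with adjusted p of 0.00172 or less. The part of other cell types in the members' values was not tested.

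Downstream of the receptors, 26 genes of receptor signalling were detected of 32 listed. In Lmo2 against wild-type arrays 2 rose and 1 fell, where 10.6% of all genes were called. In Lmo2 Lyl1-knockout against Lmo2 arrays 1 rose and none fell, where 8.77% of all genes were called. The list was thus called about as often as all genes, or less often. The gene called in both comparisons was Traf1, an adaptor that binds several of these receptors, Tnfrsf9 among them. Traf1 read 8.59, 8.25 and 8.25 on the Lmo2 Lyl1-knockout arrays, 6.28, 4.69 and 5.85 on the Lmo2 arrays, and ran 7.83 to 8.62 over the wild-type arrays, with no overlap between the Lmo2 arrays and the others. It rose by 2.76 ± 0.34 in Lmo2 Lyl1-knockout against Lmo2 arrays (adjusted p = 0.000295) and fell by 2.55 ± 0.29 in Lmo2 against wild-type arrays (adjusted p = 0.000144). The genes that rose in Lmo2 against wild-type arrays were Ikbkg, the regulatory subunit of the kinase that activates NF-kB (0.64 ± 0.17; adjusted p = 0.0324), and Cflar, which blocks caspase activation at death receptors (0.60 ± 0.16; adjusted p = 0.0329). The other 2 detected probes of Ikbkg gave 0.20 (adjusted p = 0.471) and -0.085 (adjusted p = 0.839). The median of the list was 0.04 in Lmo2 against wild-type arrays and -0.05 in Lmo2 Lyl1-knockout against Lmo2 arrays, beside -0.016 and 0.006 for all genes. None of the 26 was called between Lmo2 Lyl1-knockout and wild-type arrays, beside 0.893% of all genes.

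Of 11 listed NF-kB subunits and inhibitors 10 were detected. Relb, the subunit of the non-canonical pathway that lymphotoxin and RANK receptors drive, fell by 1.21 ± 0.26 in Lmo2 against wild-type arrays (adjusted p = 0.012). Nfkbiz, a nuclear cofactor of NF-kB, rose by 0.99 ± 0.22 in Lmo2 Lyl1-knockout against Lmo2 arrays (adjusted p = 0.0181). The other 8 were called in neither, so each comparison called 1 of 10, beside 10.6% and 8.77% of all genes. Of 18 detected NF-kB target genes, of 20 listed, 4 rose in Lmo2 Lyl1-knockout against Lmo2 arrays (median 0.52), and 1 rose and 5 fell in Lmo2 against wild-type arrays (median -0.41). Over all genes 4% rose in the first comparison, and 5.59% rose and 4.97% fell in the second. The 4 were Traf1, the apoptosis inhibitors Bcl2a1b (2.04 ± 0.31; adjusted p = 0.0013) and Bcl2a1d (1.95 ± 0.37; adjusted p = 0.00583) and the chemokine Ccl5 (1.69 ± 0.35; adjusted p = 0.0112). The same 4 and Relb fell in Lmo2 against wild-type arrays, such as Bcl2a1b (-2.00 ± 0.27; adjusted p = 0.00046) and Ccl5 (-2.78 ± 0.31; adjusted p = 9.84e-05). Bcl2a1b and Bcl2a1d are near-identical copies that a probe may not tell apart, and Ccl5 also stands among the natural killer markers. The 1 that rose was Tnfaip3, an enzyme that ends NF-kB signalling, which read 9.18, 9.68 and 9.82 on Lmo2 Lyl1-knockout, 9.58, 9.79 and 10.41 on Lmo2 and 8.79 to 9.15 on wild-type arrays (0.95 ± 0.21 for Lmo2 against wild-type; adjusted p = 0.0124). No gene of these lists was called between Lmo2 Lyl1-knockout and wild-type arrays.

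**Figure D5:**
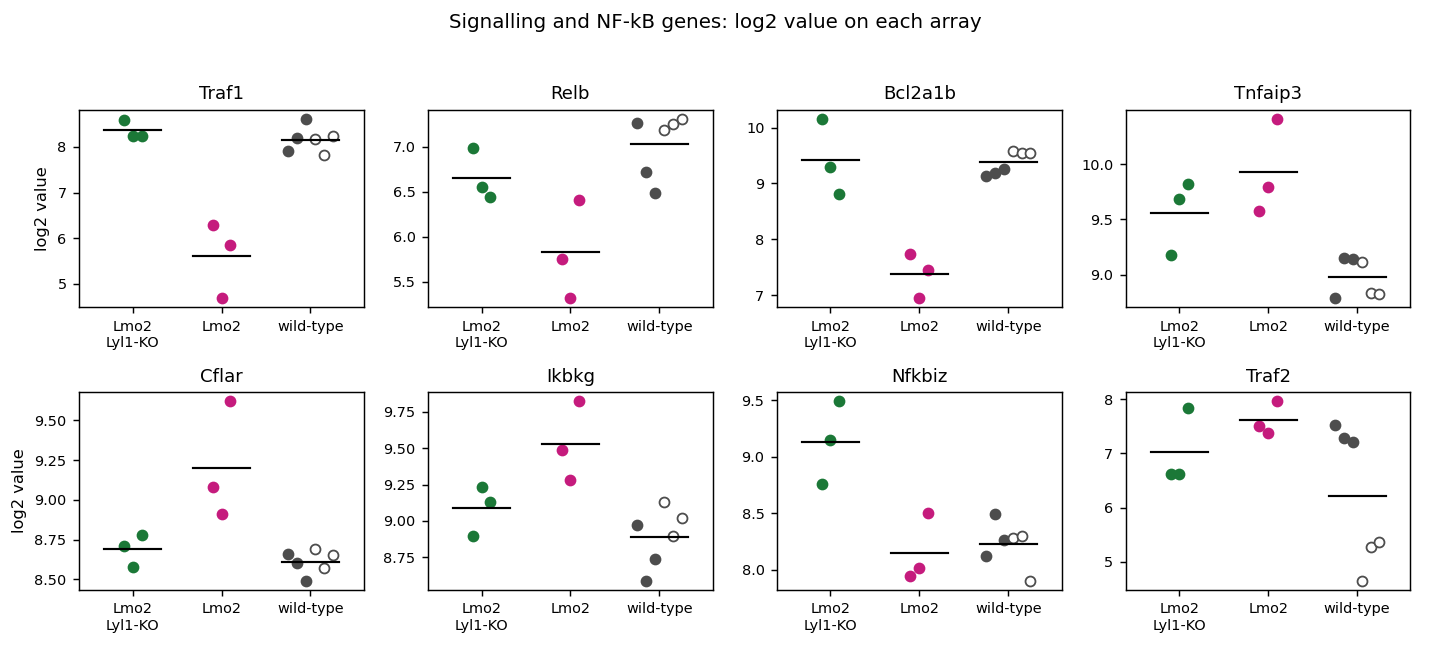
Log2 value on each array of 8 genes of receptor signalling and NF-kB, with Lmo2 Lyl1-knockout, Lmo2 and wild-type arrays from left to right. Lines are group means, open circles wild-type replicates 4 to 6, and each panel has its own axis, which does not start at 0. Traf1 lies at 4.69 to 6.28 on the Lmo2 arrays and at 7.83 or more on all others, while Traf2, an adaptor of TNF receptors, parts the wild-type arrays (-2.24 ± 0.32 for replicates 4 to 6 against 1 to 3; adjusted p = 0.0124).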

How the data were processed

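RNA of double-negative thymocytes was hybridised to 12 single-colour Illumina mouse arrays. The authors' deposited non-normalized table holds linear intensities, with a detection p-value for each of them, per the file headers. The authors' deposited value table holds log2 values with column medians of 4.88 to 4.89. The submitters' processing notes name BeadStudio and limma without saying how background was handled. Each value column matched 1 column of the non-normalized table (r of at least 0.9999 after neqc).

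The deposited log2 values were analysed. The platform annotation gives 1 symbol for 34885 of the 45281 probes, several for 18 and none for 10378. Probes with a detection p under 0.05 on at least 3 arrays were kept (20651), and all were fitted in 1 model with a mean per genotype (lmFit, contrasts and eBayes of limma 3.58.1 under R 4.3.3, 9 residual degrees of freedom, two-sided, Benjamini-Hochberg over all kept probes). A second model took the wild-type arrays as 2 sets. A gene was read from its kept probe with the highest mean, giving 10526 genes. Where a group was below background on all its arrays, only a bound is given, in which each dim array counts at the lowest value of its detected probes, or at the probe's own value where that is higher. The adjusted p beside a bound comes from the fit to the deposited values, before dim arrays were raised in this way. It therefore tests that fitted difference and not the bound. The fit was tested on simulated data.

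Members and lists were chosen with earlier results of these data known. All detected members could be named, those past the threshold with the value of every array or, for wild-type, the lowest, median and highest. Up to 4 called genes of each of 3 pathway lists per comparison were named, and 9 marker lists were measured. The alternatives were neqc, no background correction, median scaling, other probe filters and summaries, either wild-type set alone, other variance models, array weights, a replicate block and each array left out.

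The marker lists not compared between genotypes above were those of double-positive thymocytes (3 of 5 detected, mean level 9.40 to 9.51 in Lmo2 Lyl1-knockout, 8.72 to 8.89 in Lmo2 and 9.15 to 9.51 in wild-type arrays), gamma-delta T cells (5 of 11, at 8.02 to 8.85, 7.15 to 8.91 and 8.17 to 8.56) and stroma (3 of 9, at 6.50 to 6.61, 7.35 to 8.71 and 6.69 to 7.51). Same-numbered arrays did not deviate together (correlations of -0.51 to 0.31 over the comparisons), so numbers were not taken to pair samples.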

Additional observations from a re-analysis of the deposited data

Results flagged for a closer look

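Tnfrsf1b, the TNF receptor without a death domain, had 1 wild-type array apart from the other 5. Replicate 3 read 7.14, the nearest wild-type array 7.73 and the highest 7.93, so the gap was 0.744 of the group's range, above Dixon's critical value for 6 arrays. The 27 detected members were each tested this way in the wild-type group, and chance gives such a gap in about 1 in 20 groups.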

How the results depend on the processing

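The neqc values gave the same 6, 4, 0 and 3 members as the deposited values in Lmo2 against wild-type, Lmo2 Lyl1-knockout against Lmo2, Lmo2 Lyl1-knockout against wild-type, and wild-type replicates 4 to 6 against 1 to 3. The 2 sets of values are nearly the same (r of at least 0.9999 per array), so this is close to a repeat and says little about the processing. No alternative reversed a called member. Lmo2 against wild-type fell to 3 members (Fasl, Tnfrsf9 and Tnfsf10) with wild-type replicates 1 to 3 alone and gave 8 with replicates 4 to 6 alone, the cause of which was not tested, and leaving out 1 array gave 4 to 6. Lmo2 Lyl1-knockout against Lmo2 fell to 2 (Tnfrsf9 and Tnfsf10) with only these groups fitted, and leaving out 1 array gave 3 to 5. Lmo2 Lyl1-knockout against wild-type gave 2 with array weights and 0 to 1 leaving out 1 array. The wild-type sets gave 5 with only these sets fitted, 11 with array weights and 0 to 4 leaving out 1 array. The cause of the differences under array weights was not tested. The share of all genes called under each alternative is not given here, so these counts cannot be set apart from a change over all genes. With the replicate number as a block, 4, 3 and 0 members were called in the 3 comparisons of genotypes. The block lost Tnfsf11 (-1.01; adjusted p = 0.23) and Tnfsf14 (-0.91; adjusted p = 0.273) in Lmo2 against wild-type, and Tnfsf14 (1.33; adjusted p = 0.1) in Lmo2 Lyl1-knockout against Lmo2. Scaling to a common median moved the median of all probes in Lmo2 Lyl1-knockout against wild-type to 0.121 and called no member there. Dim probes limit the data: Tnfsf8, Tnfrsf12a and Ngfr were detected on only 4 or 5 arrays, so differences there may be missed or given only as bounds.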
